A study of Homo sapiens with 6 samples.

Results

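Semaphorins, plexins, ephrins and Eph receptors were examined in HEYA8 cells carrying a hairpin against ETS1. The 51 genes were taken by symbol from the authors' gene table of 20061 rows: the semaphorins of classes 3 to 7, all plexins, the Eph receptors of classes A and B and the ephrins of classes A and B. They comprised 20 semaphorins, 9 plexins, 14 Eph receptors and 8 ephrins, so 28 ligands and 23 receptors. The rule itself uses gene symbols and no measured value.

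HEYA8 is an established human ovarian cancer cell line, described by the submitters as low grade serous. The control cells (shLuciferase, 3 samples) stably expressed a lentiviral short hairpin RNA against luciferase, which has no human target. In the knockdown cells (shETS1, 3 samples) the hairpin targeted ETS1, the factor after which the ETS family of transcription factors is named. Cells of both groups grew in medium with 10% serum and 5 micrograms per ml of puromycin, which selects for the hairpin vector, and received no other treatment. Polyadenylated RNA was sequenced. How many hairpins were used per target, and whether the cells were a pool or a clone, is not given in the sources used here.

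All levels are FPKM (fragment counts divided by transcript length and library total), so levels of different genes can be set side by side. The 3 samples of a group were combined by the authors, which leaves 1 value per gene and group and no spread between samples. The p-values and q-values (p-values adjusted over all 11952 tested rows) are those of the authors' deposited table, and a gene was called changed at a q-value of at most 0.05. Whether the samples were separate cultures is not stated, so the p-values may reflect technical spread only. Sequencing depth is unknown. ETS1 was at 41.4 FPKM in control cells and 17.9 FPKM in knockdown cells, 56.9% lower. Of 7 listed ovarian carcinoma markers, 6 were tested, with PAX8 at 79.7 and 76.8 FPKM and KRT7 at 1187 and 910 FPKM. KRT18 was at 2044 and 1498 FPKM and KRT8 at 1913 and 1288 FPKM. WT1, at 3.58 and 3.13 FPKM, and EPCAM, at 1.71 and 1.82 FPKM, were far lower. MUC16 was untested, listed at 0 in knockdown cells and close to 0 in control cells. The list summed to 5229 FPKM in control cells and 3778 FPKM in knockdown cells, most of it keratins.

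Semaphorins are secreted or membrane-bound ligands that were first known for steering growing axons and are also active in blood vessels, immune cells and tumours. Plexins are their receptors. A plexin carries a GTPase-activating domain in its cytoplasmic part that acts on small GTPases of the Ras and Rap group, and secreted class 3 semaphorins usually need a neuropilin as co-receptor. Eph receptors are receptor tyrosine kinases that are engaged by ephrins on the neighbouring cell. Ephrins of class A are held in the membrane by a lipid anchor and those of class B span it, so that signals run into both cells at a contact.

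Of the 51 genes, 32 were tested by the authors and 2 of these were called, both of them semaphorins. SEMA6B fell and SEMA5A rose in shETS1. No plexin, Eph receptor or ephrin was called. In bulk RNA, fewer cells with a transcript and less of it per cell cannot be told apart. The 2 calls are 6.25% of the 32 tested genes, against 0.812% of all tested genes, and SEMA5A reached a test through its knockdown level only, so these shares are descriptions. Counted by direction, 0.544% of all tested genes were called higher and 0.268% lower in knockdown cells. The count of the members was also 2 at a q-value of 0.01, which 0.519% of all tested genes reached, and at 0.10, which 1.26% reached. At an unadjusted p under 0.05 there were 8 of the 32 (25%), against 6.94% of all tested genes. Of the 8, 4 had a higher level in knockdown cells (3.9% of all tested genes did) and 4 a lower level (3.04%). These 8 were 5 semaphorins (SEMA3C, SEMA3F, SEMA4D, SEMA5A and SEMA6B), the Eph receptors EPHA4 and EPHB4, and the ephrin EFNB2.

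Of the 32 tested genes, 26 had group levels that averaged 1 FPKM or more, and SEMA6B was the called gene among them, where 0.796% of all tested genes at that level were called. Their median log2 fold change of shETS1 over shLuciferase was -0.058, against 0.015 for all 10676 tested genes at that level. Of the 26, 10 had a log2 fold change above 0 and 16 below, where 52.6% of all tested genes at that level were above 0. A level ratio of at least 1.5-fold in either direction was found for 7 of the 26 (26.9%), against 5.88% of all tested genes at that level. The 19 genes with p of 0.05 or more in this group of 26 differed by at most 1.28-fold between the group values, the largest being that of EPHA2.

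**Figure D1:**
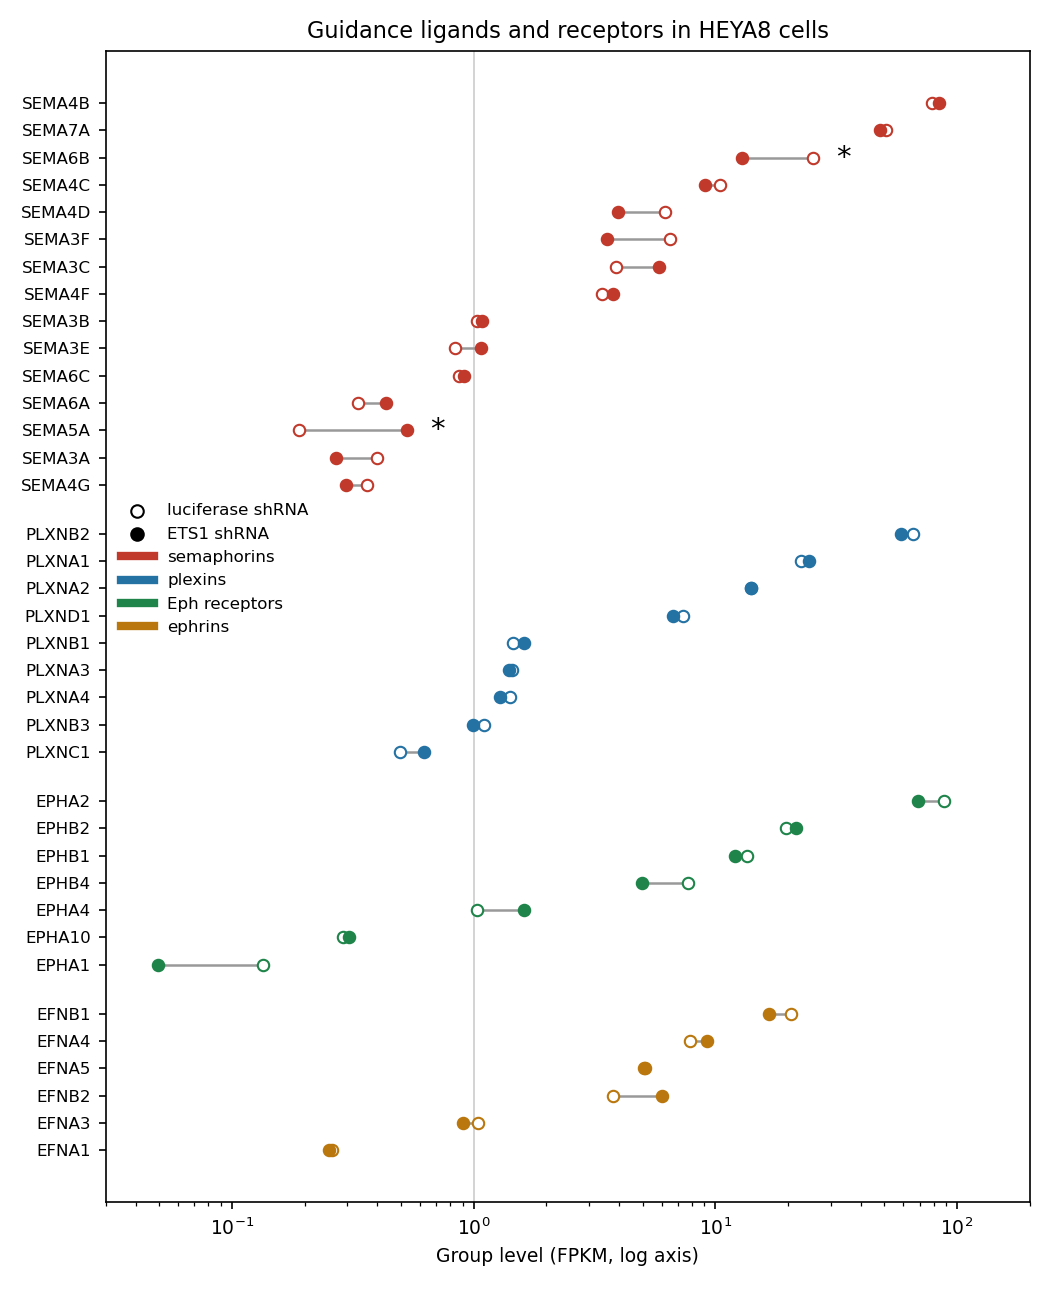
Group level in FPKM (horizontal log axis) of each semaphorin, plexin, Eph receptor and ephrin that reached 0.1 FPKM in a group. Open circles are luciferase shRNA, filled circles ETS1 shRNA, each the authors' value for 3 combined samples with no error bar, and the grey vertical line marks 1 FPKM. Asterisks mark SEMA6B (25.3 and 12.9 FPKM) and SEMA5A (0.190 and 0.528 FPKM), the genes called at a q-value of 0.05, while the 2 circles of each plexin lie close together.

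The 250 bases before the annotated start of 3 of these genes are shown, because the hairpin lowers a factor of the family that binds GGAA. SEMA5A is the called ligand that had an entry, and EFNB2 and EPHB4 form the ligand and receptor pair whose group values differed most in opposite directions among pairs with both partners at 1 FPKM or more. Sequences are from RefSeq on GRCh38.p14, given 5′ to 3′ on the strand of the gene, with each GGAA (or its complement TTCC) in capitals.
SEMA5A, minus strand, chr5:9546076-9546325: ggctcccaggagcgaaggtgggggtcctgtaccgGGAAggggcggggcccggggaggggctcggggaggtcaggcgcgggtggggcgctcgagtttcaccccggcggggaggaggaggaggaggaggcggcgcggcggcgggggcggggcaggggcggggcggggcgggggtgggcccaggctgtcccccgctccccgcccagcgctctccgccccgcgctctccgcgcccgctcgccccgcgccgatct
EFNB2, minus strand, chr13:106535663-106535912: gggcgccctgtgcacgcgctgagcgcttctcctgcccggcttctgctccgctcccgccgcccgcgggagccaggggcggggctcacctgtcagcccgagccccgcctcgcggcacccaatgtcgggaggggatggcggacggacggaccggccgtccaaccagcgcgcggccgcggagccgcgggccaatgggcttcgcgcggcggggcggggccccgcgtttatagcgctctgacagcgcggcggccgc
EPHB4, minus strand, chr7:100827524-100827773: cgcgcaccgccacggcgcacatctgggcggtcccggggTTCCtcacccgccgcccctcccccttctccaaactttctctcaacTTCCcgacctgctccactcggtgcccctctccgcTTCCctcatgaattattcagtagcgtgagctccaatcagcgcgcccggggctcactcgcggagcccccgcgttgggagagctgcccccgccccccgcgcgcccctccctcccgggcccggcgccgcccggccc
The SEMA5A stretch holds GGAA 1 time, the EFNB2 stretch 0 times and the EPHB4 stretch 3 times, all 3 on the opposite strand. The 3 stretches are rich in G and C, at 82%, 78.4% and 72.8%.

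Over windows of 300 bases (250 before the start and 50 after it), both strands were searched for GGAA, for CGGAAG and for CCGGAAGT, each longer motif containing the shorter ones. RefSeq windows matched 46 of the 51 genes by symbol, 73 windows in all because some genes have several starts. The 5 unmatched genes were EFNB3, EPHA10, SEMA3A, SEMA6A and SEMA6B. GGAA was in 63 of the 73 windows (86.3%), against 95.5% of 35116 windows of all genes. CGGAAG was in 11 of the 73 (15.1%), against 19.5% of all windows, and these belonged to 9 genes, among them EPHB1, PLXNB1, SEMA4B and SEMA7A. CCGGAAGT was in 0 of the 73 windows and in 4.14% of all windows. The median GC content was 65.7% over the 73 windows and 58.7% over all windows, and its part in these shares was not tested. Some windows of the same gene overlap, as for EPHB2, so the windows are not separate observations. Which start sites HEYA8 cells use was not measured, and the letters say nothing of binding.

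Among the semaphorins, 3 genes made up most of the RNA. SEMA4B, a membrane-bound class 4 semaphorin, was the most abundant at 78.9 FPKM in control cells and 84.2 FPKM in knockdown cells. SEMA7A, which is held in the membrane by a lipid anchor and signals through integrins and PLXNC1, was at 50.8 and 48.1 FPKM. SEMA6B, a transmembrane class 6 semaphorin, came next at 25.3 FPKM in control cells and 12.9 FPKM in knockdown cells. Together these genes held 81.8% of the summed semaphorin FPKM in shLuciferase and 82.4% in shETS1. The share of SEMA6B alone went from 13.4% to 7.30% and that of SEMA4B from 41.6% to 47.8%. The sum over all 20 semaphorins was 189.7 FPKM in control cells and 176.2 FPKM in knockdown cells, and without SEMA6B it was 164.4 and 163.3 FPKM.

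SEMA6B fell 1.97-fold, by 49.2%. In the authors' deposited table its log2 fold change was -0.98, its q-value 0.00964 and its p-value 5e-05, the smallest there and shared by 62 rows. Its locus is on chromosome 19, 4542600 to 4559771 (hg19), and no other row reaching 1 FPKM overlaps it. Counting SEMA6B itself, 29 of the 3364 tested genes with a mean within 2-fold of its own changed at least as much in either direction. Its 4 nearest tested neighbours, between 24.9 and 97.8 kb away, were not called: HDGFRP2 at 113.6 and 103.2 FPKM, TNFAIP8L1 at 15.1 and 14.8 FPKM, UBXN6 at 88.4 and 95.5 FPKM and C19orf10 at 161.4 and 196.3 FPKM. The other class 6 semaphorins were far lower. SEMA6C was at 0.868 and 0.917 FPKM and SEMA6A at 0.333 and 0.436 FPKM, with p-values of 0.797 and 0.263 in the authors' deposited table, and SEMA6D was untested at 0.0534 and 0.0584 FPKM. The class as a whole went from 26.6 to 14.3 FPKM, nearly all of it SEMA6B.

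SEMA5A, a transmembrane class 5 semaphorin with thrombospondin repeats, rose 2.78-fold from a low level, 0.190 FPKM in control cells to 0.528 FPKM in knockdown cells. Its deposited log2 fold change was 1.48 and its q-value 0.00964, again at the smallest p-value of the authors' deposited table. With 1 FPKM added to both levels its log2 ratio was 0.36. No tested row of the table was below 0.393 FPKM in both groups, so the shLuciferase level of SEMA5A alone would not have brought it to a test, and the gene was tested through its knockdown level: its higher level there is bound up with its having been tested at all. Only 37 tested rows (0.310%) had a mean as low as that of SEMA5A or lower. SEMA3A, at 0.397 and 0.269 FPKM, and SEMA4G, at 0.363 and 0.296 FPKM, were not tested at similar levels. The locus of SEMA5A (chromosome 5, 9035138 to 9546233, hg19) spans 511096 bases and its annotated transcript is 11762 bases long, the second longest among the tested genes here after PLXNA4. FAM173B, the nearest tested gene at a distance of 680 kb, was also called higher, at 1.77 and 3.85 FPKM, whereas CCT5, 704 kb away, was at 207.5 and 197.4 FPKM and was not called. The row listed as 6-Mar (MARCH6), 808 kb away, was at 11.8 and 13.5 FPKM. ROPN1L, 896 kb away, was at 0.895 and 0.821 FPKM, and neither of these was called. The other class 5 gene, SEMA5B, was untested at under 0.01 FPKM in each group.

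The secreted class 3 semaphorins had low levels and differed among themselves. SEMA3F, which signals through NRP2 and is known as a repellent for tumour and endothelial cells, was at 6.50 FPKM in control cells and 3.58 FPKM in knockdown cells, 1.82-fold lower. Its p-value of 0.00165 in the authors' deposited table did not pass adjustment (q-value 0.121). SEMA3C was at 3.89 and 5.87 FPKM, 1.51-fold higher, and in the authors' deposited table its p-value was 0.0425 and its q-value 0.678. SEMA3B lies on chromosome 3 beside SEMA3F, 78.5 kb from it, and stood at 1.03 and 1.08 FPKM. SEMA3E, on chromosome 7 with SEMA3C and 2442 kb from it, was at 0.841 and 1.07 FPKM. SEMA3A, the founding repellent of axon growth cones, SEMA3D and SEMA3G were untested and below 0.4 FPKM in each group. The class summed to 12.8 and 11.97 FPKM.

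In class 4, SEMA4D, the ligand of PLXNB1 that is known from immune cells and tumour angiogenesis, was at 6.19 FPKM in control cells and 3.96 FPKM in knockdown cells. The level was 1.56-fold lower, and in the authors' deposited table its p-value was 0.00975 and its q-value 0.336. SEMA4C, a ligand of PLXNB2, was at 10.4 and 9.09 FPKM and SEMA4F at 3.39 and 3.77 FPKM. SEMA4G and SEMA4A were untested, with SEMA4A at about 0.02 FPKM. The locus of SEMA4G overlaps that of MRPL43, so its reads are uncertain.

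**Figure D2:**
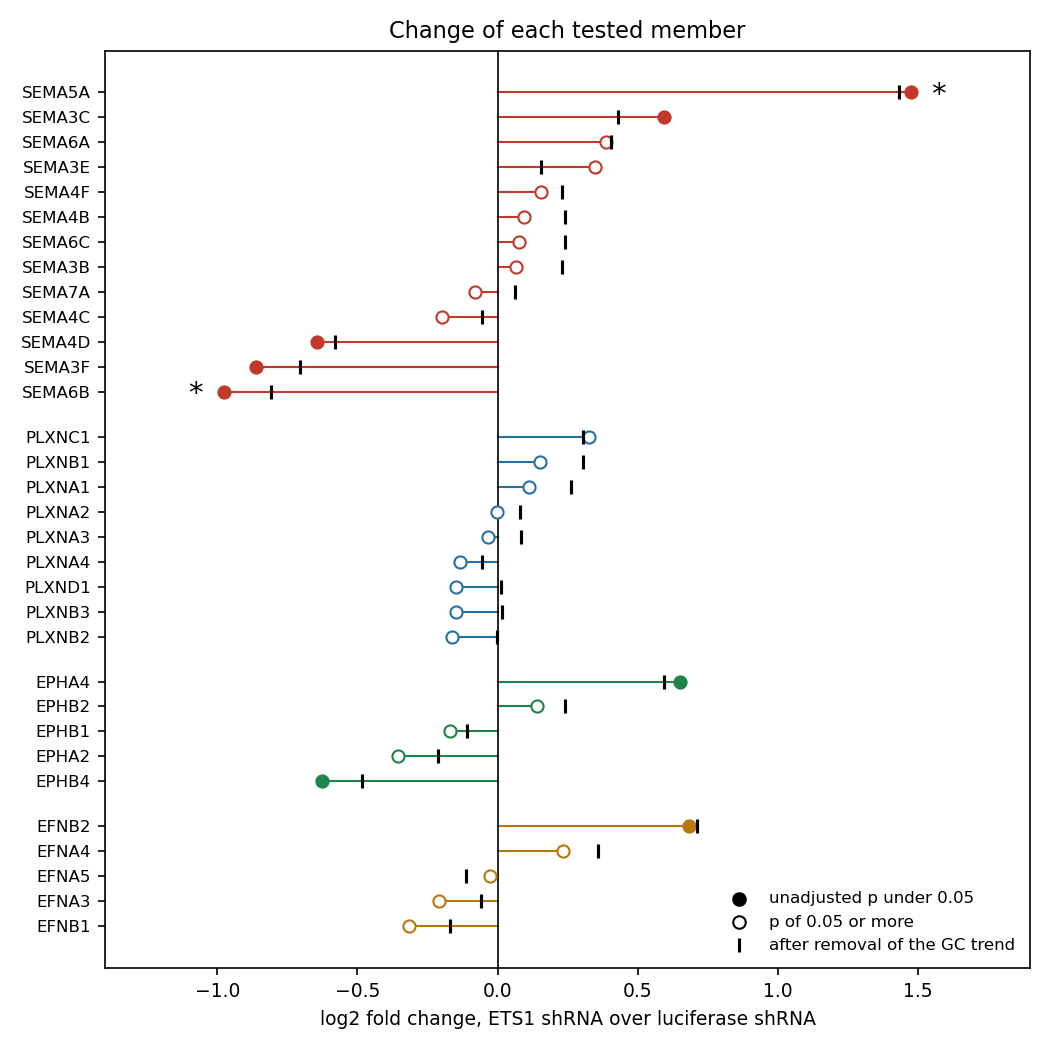
Log2 fold change of shETS1 over shLuciferase (horizontal axis) for the 32 tested genes, ordered by value within each family. Filled circles have an unadjusted p under 0.05 in the authors' deposited table, asterisks mark the 2 called genes, and black ticks give the value once the trend with GC content of the transcripts is taken off. Semaphorins spread from -0.98 (SEMA6B) to 1.48 (SEMA5A), whereas plexins lie between -0.16 and 0.33.

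All 9 plexins were tested and none was called, with no p-value below 0.391 in the authors' deposited table. PLXNB2, a receptor of class 4 semaphorins, was the most abundant at 65.8 FPKM in control cells and 58.9 FPKM in knockdown cells. PLXNA1, which pairs with neuropilins and binds SEMA6D directly, was at 22.7 and 24.5 FPKM, PLXNA2 at 14.1 and 14.1 FPKM and PLXND1, the receptor of SEMA3E in vessels, at 7.38 and 6.67 FPKM. PLXNB1, PLXNA3, PLXNA4 and PLXNB3 were each between 0.9 and 1.7 FPKM in both groups. PLXNC1, the plexin that binds SEMA7A, was the lowest at 0.497 and 0.623 FPKM. The 8 plexins with a mean of at least 1 FPKM differed by at most 1.12-fold, and their median log2 fold change was -0.085. No gene with a mean from 1 to 5 FPKM was called at less than 1.96-fold, none from 5 to 20 FPKM at less than 1.85-fold and none from 20 to 100 FPKM at less than 1.83-fold, so changes of the size seen in the plexins were not detectable here and equality of the groups is not shown. The p-values of this family and of the semaphorins were not compared by a test of the difference between families.

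A single Eph receptor, EPHA2, accounted for 67.5% of the summed Eph receptor FPKM in shLuciferase and 62.8% in shETS1. EPHA2, a receptor that is abundant in many carcinomas, was at 88.2 FPKM in control cells and 69.0 FPKM in knockdown cells. The difference was -21.8%, and in the authors' deposited table its p-value was 0.152 and its q-value 0.977. EPHB2 was at 19.7 and 21.7 FPKM and EPHB1 at 13.6 and 12.04 FPKM, and neither was called. EPHB4, a receptor of EFNB2 and a marker of veins, was at 7.71 FPKM in control cells and 4.99 FPKM in knockdown cells, 1.55-fold lower. In the authors' deposited table its p-value was 0.0107 and its q-value 0.350. EPHA4, which binds ephrins of both classes, was at 1.03 and 1.62 FPKM, 1.57-fold higher, and its p-value and q-value in the same table of the authors were 0.0177 and 0.464. The other 9 Eph receptors were untested. The highest of these was EPHA10, which lacks a working kinase, at 0.289 and 0.305 FPKM, and EPHA3 and EPHA6 were listed at 0 in both groups. EPHA1, at 0.134 and 0.0495 FPKM, has a locus that overlaps ZYX.

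The ephrins were led by EFNB1, at 20.7 FPKM in control cells and 16.6 FPKM in knockdown cells. EFNB2, a marker of arteries, was at 3.76 FPKM in control cells and 6.04 FPKM in knockdown cells, 1.61-fold higher. Its p-value of 0.00650 in the authors' deposited table did not pass adjustment (q-value 0.263). Among class A, EFNA4 was at 7.87 and 9.25 FPKM, EFNA5 at 5.14 and 5.05 FPKM and EFNA3 at 1.04 and 0.900 FPKM, and none had a p-value below 0.423 in the authors' deposited table. EFNA3 and EFNA4 share 1 locus in the table (chromosome 1, 155036213 to 155060014, hg19), so the division of reads between them is uncertain. EFNA1, a main ligand of EPHA2, was untested at 0.260 and 0.251 FPKM, so that EPHA2 stood 340-fold above it in shLuciferase. EFNA2 and EFNB3 were untested and below 0.1 FPKM.

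Ligand and receptor levels were set side by side for 23 known pairs, of which 10 had both partners at 1 FPKM or more in a group. In 6 of the 10 the log2 fold changes of ligand and receptor had opposite signs and in 4 the same sign. Of all tested genes averaging 1 FPKM or more, 52.6% were above 0. That is a share of single genes, and no share of opposite signs was computed over other pairs. Several genes, such as EFNB2 and SEMA4D, recur among the 10 pairs, so these counts are descriptions and not separate observations. Among these 10, the pair of EFNB2 and EPHB4 had the widest gap: the ligand was at 3.76 and 6.04 FPKM and the receptor at 7.71 and 4.99 FPKM. The ratio of EFNB2 to EPHB4 was thus 0.488 in shLuciferase and 1.21 in shETS1, so the order of the partners was exchanged, although neither change was called. EFNB2 and its other receptor EPHA4 were both higher in shETS1, by 0.68 and 0.65 log2 units. For SEMA4D, with the receptors PLXNB1 and PLXNB2, and for SEMA3C, with PLXND1, the ligand had a p under 0.05 and the receptors did not. SEMA7A and PLXNC1 were expressed at very different levels, 50.8 and 0.497 FPKM in shLuciferase.

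Endothelial genes were checked beside the vessel-related genes EFNB2, EPHB4 and SEMA3F. Of 10 listed endothelial markers 9 had a row and 4 were tested. The sum of the list was 206.0 FPKM in control cells and 141.0 FPKM in knockdown cells, most of it TIE1 (164.3 and 121.6 FPKM). All 4 tested markers were lower in knockdown cells and 3 of them had an unadjusted p under 0.05. Of all tested genes 3.04% were lower at that p-value, and of those averaging 1 FPKM or more 52.6% had a log2 fold change above 0. CDH5 was called and fell from 17.6 to 5.00 FPKM. ROBO4 was at 21.0 and 12.8 FPKM and ESAM at 2.42 and 1.06 FPKM, with p-values of 0.00485 and 0.00215 in the authors' deposited table, and neither was called. KDR, TEK and EMCN of the same list were untested and at or near 0, at 0.0710, 0.0126 and 0.00343 FPKM in shLuciferase. CLDN5, at 0.295 and 0.271 FPKM, and VWF, at 0.238 and 0.153 FPKM, were also untested. The 6 listed leukocyte markers summed to 49.2 and 47.6 FPKM, nearly all of it CD68, at 48.5 and 47.1 FPKM. CD14 was at 0.688 and 0.525 FPKM, and PTPRC, TYROBP and CD3E were listed at 0 in both groups. Of 6 listed neuronal and glial markers 2 were tested, and the list summed to 17.6 and 11.7 FPKM, nearly all of it RBFOX3, at 16.7 and 10.4 FPKM. Of 6 listed fibroblast markers COL1A1 was called and rose from 1.29 to 3.75 FPKM. FAP, the most abundant of them, was at 4.60 and 6.31 FPKM and was not called. COL3A1 and DCN were listed at 0, and the sum of the list was 5.91 and 10.1 FPKM. The 4 listed mesothelial markers summed to 23.0 and 30.7 FPKM, most of it MSLN, at 17.9 and 26.5 FPKM. In the authors' deposited table the p-value of MSLN was 0.0309, and it was not called. LRRN4 was called and fell from 1.39 to 0.551 FPKM, and CALB2 was at 0.793 and 1.04 FPKM. The part of these genes in the values of EFNB2, EPHB4 and SEMA3F was not tested.

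**Figure D3:**
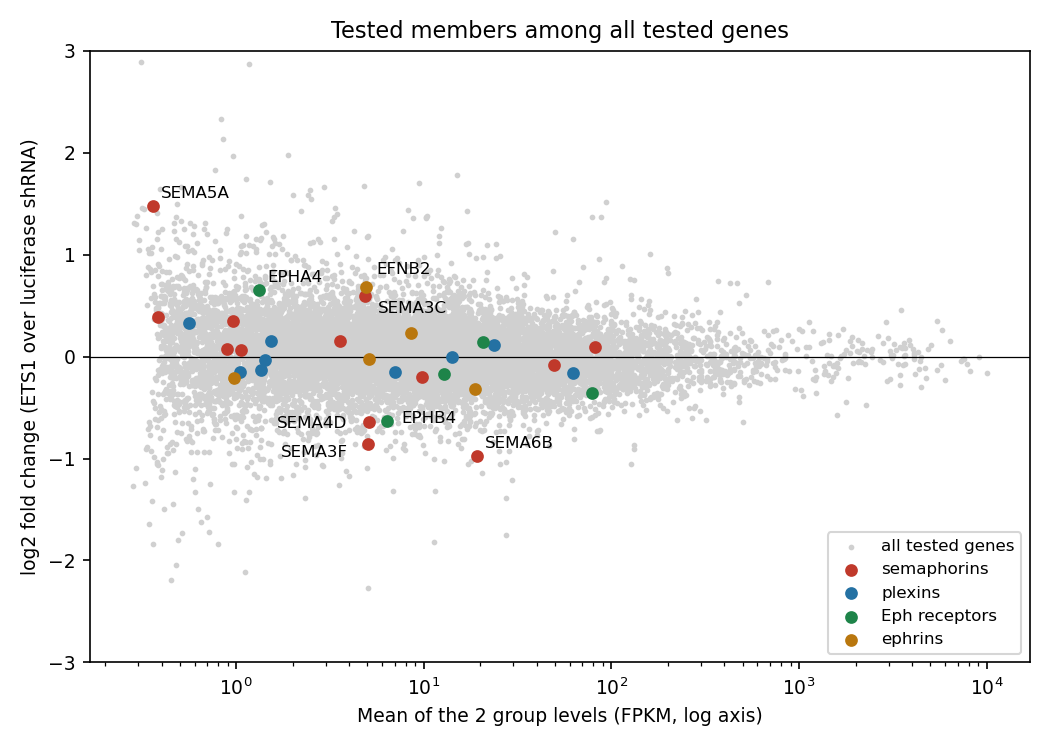
Log2 fold change of shETS1 over shLuciferase (vertical axis) against the mean of the 2 group levels in FPKM (horizontal log axis). Grey points are all tested genes within 3 log2 units, and coloured points are the tested semaphorins, plexins, Eph receptors and ephrins, with names for those with an unadjusted p under 0.05. SEMA6B lies among the lower genes at its level, and SEMA5A at the low end of the tested range, with a mean of 0.359 FPKM.

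The base composition of the transcripts moved with the changes, both over the tested genes as a whole and among the genes described here. The 4 genes with a higher level at p under 0.05 (SEMA3C, EPHA4, SEMA5A and EFNB2) had a transcript GC content of 39.4% to 50.03%. The 4 with a lower level (SEMA4D, EPHB4, SEMA3F and SEMA6B) had 52.4% to 67.7%. How all tested genes with a p under 0.05 divide by GC content was not computed. Over 9736 tested genes that averaged 1 FPKM or more and had a GC value, the log2 fold change had a Spearman rho of -0.46 with GC content, and over the 26 genes described here rho was -0.42. These are descriptions over genes that share the same libraries. The 26 genes had a median GC content of 60.3%, against 48.8% for all. After a cubic trend on GC content was removed, the log2 value was -0.81 for SEMA6B, -0.71 for SEMA3F, -0.58 for SEMA4D, -0.48 for EPHB4, 0.43 for SEMA3C, 0.59 for EPHA4, 0.71 for EFNB2 and 1.43 for SEMA5A, so each kept its sign. The sign differed for 5 of the 32 tested genes (PLXNA2, PLXNA3, PLXNB3, PLXND1 and SEMA7A), none of them with a p under 0.05, and the median of the 26 went from -0.058 to 0.039. The part of base composition in the calls was not tested, because the deposited p-values cannot be refitted.

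**Figure D4:**
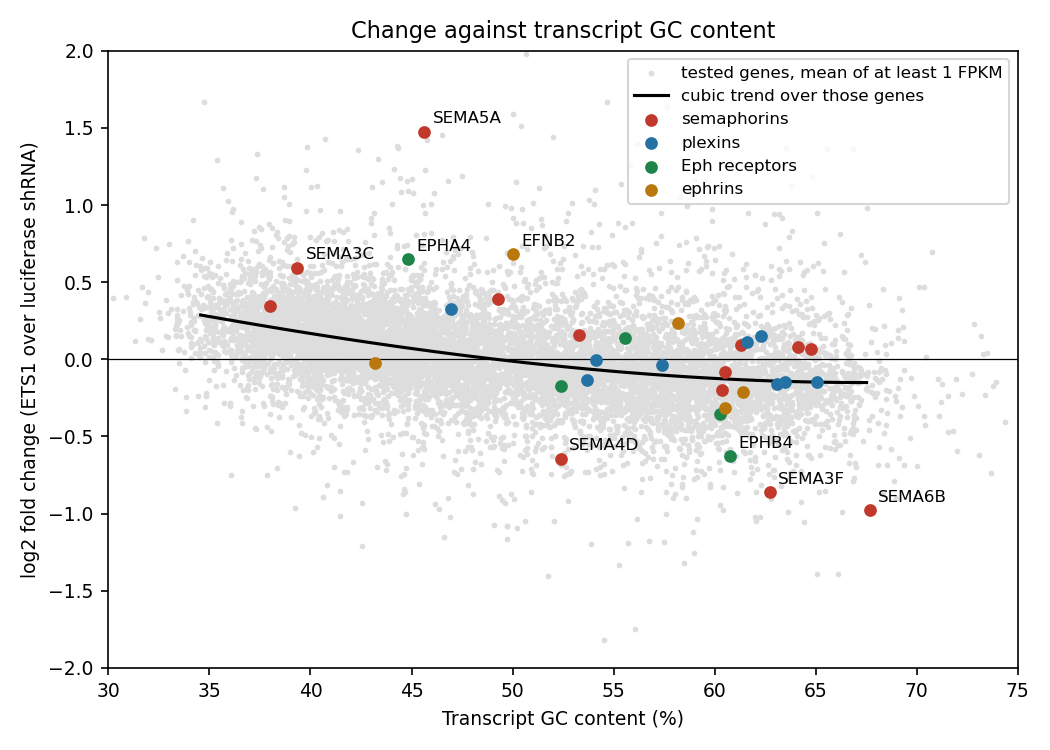
Log2 fold change of shETS1 over shLuciferase (vertical axis) against transcript GC content in percent (horizontal axis). Grey points are tested genes with a mean of at least 1 FPKM within 2 log2 units, the black line is the cubic trend over those genes, and coloured points are the tested semaphorins, plexins, Eph receptors and ephrins. The named genes with higher levels lie at 39.4% to 50.03% GC and those with lower levels at 52.4% to 67.7%.

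Partners of these ligands and receptors were counted from 4 lists. None of 63 tested partner genes (of 82 listed) was called, and 6 had an unadjusted p under 0.05. These 6 are 9.52% of the 63, against 6.94% of all tested genes, while 0.812% of all tested genes were called. Among 6 tested co-receptors of semaphorins, NRP2 was at 21.2 and 20.5 FPKM, NRP1 at 13.1 and 17.2 FPKM and the integrin chain ITGB1 at 100.4 and 152.6 FPKM. In the authors' deposited table the q-values were 1.00 for NRP2, 0.950 for NRP1 and 0.424 for ITGB1. L1CAM, a neural adhesion molecule that joins neuropilin complexes, was at 0.772 and 0.459 FPKM, and its q-value there was 0.555. Of 25 tested genes of plexin signalling none had a p under 0.05, and their median log2 fold change over the 24 that averaged 1 FPKM or more was 0.033. RHOA was at 351.6 and 379.0 FPKM, RAC1 at 302.2 and 345.0 FPKM and RRAS, a small GTPase on which plexins act, at 87.3 and 100.8 FPKM.

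Of 23 tested genes of Eph and ephrin signalling, 2 (8.70%) had a p under 0.05, against 6.94% of all tested genes. NGEF, the exchange factor ephexin that links Eph receptors to RhoA, was at 0.252 and 0.711 FPKM, and the kinase YES1 was at 10.3 and 15.4 FPKM. In the authors' deposited table their q-values were 0.0688 and 0.468. The most abundant members of that list were SDCBP, which encodes the scaffold syntenin, at 72.5 and 95.7 FPKM, RGS3 at 63.1 and 63.9 FPKM and ACP1 at 47.9 and 52.3 FPKM. Among other guidance ligands and receptors 9 of 19 were tested, and the 7 with a mean of at least 1 FPKM all had a log2 fold change above 0, with a median of 0.41. Of all tested genes at that level 52.6% were above 0, with a median of 0.015. Of the 9 tested, 2 (22.2%) had a p under 0.05 and none was called, where 0.812% of all tested genes were called. SLIT2, a secreted ligand of ROBO receptors, was at 0.787 and 1.67 FPKM, and NTNG1, a membrane-anchored netrin relative, was at 9.25 and 14.9 FPKM. In the authors' deposited table their q-values were 0.067 and 0.288. RGMB, at 18.3 and 23.7 FPKM, and ROBO3, at 8.66 and 10.1 FPKM, had p-values of 0.116 and 0.407 there.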

How the data were processed

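The deposited table holds 1 FPKM value per gene for 3 combined shLuciferase samples and 1 for 3 combined shETS1 samples, made by the authors, beside a log2 fold change, a p-value, a q-value and a test score that was left aside, per the file headers. The tools named are Cufflinks 2.1.1, SAMtools 0.1.18, Bowtie2 2.0.6 and TopHat2 2.0.7, with build hg19, per the submitters' processing notes; the annotation is not given in the sources used here. The labels' protocols name no step that marks the strand, so overlapping or antisense genes may share reads. No per-sample value was used, so no test between the groups, per-sample fit or replicate spread was computed here. A cubic trend on GC content was fitted over genes. The log2 ratios of the 45 genes of the report with both levels above 0 equalled the deposited ones within 0.001. Calls used the authors' deposited q-value.

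Members, lists and pairs were chosen with earlier results of these data known. Named genes are ETS1, members with an unadjusted p under 0.05, the 4 most abundant per family, paired genes at 1 FPKM, members changed at least 1.5-fold, and partners with a p under 0.05 or among the 3 most abundant; other members, neighbours and markers were named after their values were seen. Transcript GC content came from GENCODE 29 (the transcript with the longest coding sequence, by symbol), with no coordinates, for all 51 members and 91.2% of tested genes averaging 1 FPKM or more. The trend removal and the motif search were tested on simulated data. Coordinates are 1-based. Python 3.11.15, pandas 2.3.3, numpy 2.4.6, scipy 1.17.1 and matplotlib 3.10.9 were used.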

Additional observations from a re-analysis of the deposited data

How the results depend on the processing

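Of the 32 tested members, 2 were called at a q-value of 0.05, and the count was also 2 at 0.01, at 0.10, by the authors' own significance mark and without members at overlapping loci. It was 1 (SEMA6B) among members averaging 1 FPKM or more and 8 at an unadjusted p under 0.05. Of all tested genes, 0.812% were called at a q-value of 0.05, 0.519% at 0.01 and 1.26% at 0.10. The share called was 0.796% among those averaging 1 FPKM or more, and 6.94% of all tested genes had an unadjusted p under 0.05. Some of these settings could not have lowered the count. Neither SEMA6B nor SEMA5A lies at an overlapping locus, and the significance mark is no separate check, since it accompanies the same q-values. Both genes share the smallest p-value of all rows (q-value 0.00964), so a cutoff that leaves any call keeps both. At 0.10 the count could have risen, but SEMA3F came next at 0.121. Among partner genes 0 were called, 2 at a q-value of 0.10 (NGEF and SLIT2) and 6 at an unadjusted p under 0.05; these partner settings were chosen after seeing the data. The median log2 fold change of members was -0.058 as reported, -0.049 with 1 FPKM added to both levels, -0.015 over all tested members, -0.16 for those averaging 5 FPKM or more, -0.073 with the median of all genes subtracted and -0.081 without overlapping loci. It reversed to 0.039 with the GC trend removed, where no called member changed sign. No paired analysis was possible because the table holds 1 combined value per group, and for the same reason leaving out each replicate was not run. Depth is unknown, so no detection limit is given for members listed at or near 0.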
